A study of Mus musculus with 12 samples.

Results

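The regions described here are distal stretches of mouse chromatin that carried acetylation of lysine 27 of histone H3 (H3K27ac) in C2C12 myoblasts and still carried it in the myotubes formed from them. They were chosen by H3K27ac alone. An interval of the peak list named for H3K27ac in myoblasts was taken when it lay on chromosomes 1 to 19 and more than 2.5 kb from every transcription start site (TSS) of a protein-coding gene in the mm9 build. It also had to overlap a myotube H3K27ac peak, and its ratio of (reads + 1)/library total, myotube over myoblast, had to lie between 1/3 and 3. The rule found 11041 regions, called kept distal regions below, which were 52.1% of the 21197 distal intervals, out of 34162 intervals on chromosomes 1 to 19 and 34676 in the list. Because H3K27ac chose them, its levels are given as a description, while the other marks, the positions and the sequences were not used in the choice.

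C2C12 is a myoblast line derived from skeletal muscle of the C3H mouse strain, used here at passages 15 to 18 with no genetic change or agent named in the labels. Myoblasts were taken close to confluence in medium with 10% serum. Myotubes, fused muscle cells, were taken about 5 days after serum was withdrawn and had been freed of unfused cells by a mild trypsin treatment. Chromatin of each cell type was immunoprecipitated for 6 histone modifications and sequenced, which gave 12 libraries, 1 for each mark and cell type.

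Enhancers are stretches of DNA away from the promoter at which transcription factors bind and raise transcription of a gene. Their flanking nucleosomes typically carry monomethylation and dimethylation of lysine 4 of histone H3 (H3K4me1 and H3K4me2), and H3K27ac is found at those that are active. Trimethylation of the same lysine (H3K4me3) marks promoters, H3K36me3 marks transcribed gene bodies and H3K27me3 marks chromatin silenced by Polycomb proteins. When C2C12 cells leave the cell cycle and fuse, the myogenic factors Myod1 and myogenin, which bind E-box sequences, act together with MEF2 proteins at muscle genes, while AP-1 and TEAD factors act at many genes of proliferating, adherent cells.

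Stretches of 150 bases from 6 regions are printed here because they hold clusters of the motifs searched and belong to genes to which the results return. They came from the region with most H3K27ac reads near the leading gene of each of 11 gene lists and from the 3 regions with most H3K27ac per kb, and those shown hold at least 3 motif matches each. The motifs were AP-1 (TGANTCA), E-box (CAGCTG), TEAD (CATTCC), RUNX (TGTGGTT), SP/KLF (GGGCGG), ETS (CCGGAAG), NF1 (TTGGCA), MEF2, the SRF CArG box and CTCF. They were searched on both strands, and matches of different motifs could overlap. Within its region, each stretch was the 150 bases with most matches outside annotated exons, so its cluster follows from that choice. The Hes1 stretch, with 8 matches, all SP/KLF, is not printed. Bases come from the plus strand of mm9, 5′ to 3′, and capitals mark the matches. The stretches lie in intergenic DNA upstream of Myod1 and Nanos3 and downstream of Myc within the long non-coding gene Pvt1, and in introns of Myh9, Col4a2 and Igf2r.
Myod1 chr7:53607279-53607428: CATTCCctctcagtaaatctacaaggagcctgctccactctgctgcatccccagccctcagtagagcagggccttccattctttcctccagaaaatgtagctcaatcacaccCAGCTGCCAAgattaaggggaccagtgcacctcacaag
Myh9 chr15:77628005-77628154: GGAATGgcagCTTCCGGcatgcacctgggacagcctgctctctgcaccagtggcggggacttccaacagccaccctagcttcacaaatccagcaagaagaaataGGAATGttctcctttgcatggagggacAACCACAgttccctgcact
Col4a2 chr8:11382479-11382628: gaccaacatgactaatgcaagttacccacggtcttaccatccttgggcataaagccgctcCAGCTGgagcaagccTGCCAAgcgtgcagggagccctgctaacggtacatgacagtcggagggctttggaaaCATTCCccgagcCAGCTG
Igf2r chr17:12952671-12952820: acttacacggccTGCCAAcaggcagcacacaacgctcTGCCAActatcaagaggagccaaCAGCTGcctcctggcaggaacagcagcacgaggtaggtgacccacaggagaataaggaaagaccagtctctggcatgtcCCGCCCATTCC
Myc chr15:61911023-61911172: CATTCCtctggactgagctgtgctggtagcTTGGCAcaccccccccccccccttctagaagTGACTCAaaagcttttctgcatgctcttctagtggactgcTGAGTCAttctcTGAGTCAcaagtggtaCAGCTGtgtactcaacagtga
Nanos3 chr8:86724550-86724699: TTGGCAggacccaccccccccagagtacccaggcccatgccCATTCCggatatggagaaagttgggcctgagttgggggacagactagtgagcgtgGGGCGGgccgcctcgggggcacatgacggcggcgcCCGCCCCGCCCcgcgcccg
The Myc stretch held 3 AP-1 matches. The Myod1 stretch held a TEAD, an E-box and an NF1 match, of which the E-box and NF1 matches shared bases.

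The libraries held between 1858771 and 7033100 reads. The myoblast H3K27ac library was the shallowest of the 12, against 4725910 reads for H3K27ac in myotubes. The list named for myoblast H3K27ac was deposited with the sample labelled H3K27me3, and the list named for H3K27me3 with the sample labelled H3K27ac. Over the former list the H3K27ac library had 36.4 times its genome mean and the H3K27me3 library 0.804 times. Over the latter the values were 0.588 and 6.76, so the names were followed, and the list deposited with the H3K27ac sample would have left 19 regions. All 12 myotube marker genes (Myog, Ckm, Acta1 and others) had over 2-fold more promoter H3K4me3 in myotubes than in myoblasts. All 4 cycling-cell genes had less than 0.5 times as much, and the blood, endothelial and neural markers had median promoter levels from 0 to 0.922 times the genome mean. The 4 myoblast markers (Myod1, Myf5, Cdh15 and Des) did not separate the cell types. Their median promoter H3K4me3 was 22.6 in myoblasts and 17.8 in myotubes, with a median ratio of 1.12. The 6 genes of the fibroblast, adipocyte and bone fates (Pparg, Cebpa, Adipoq, Runx2, Sp7 and Dcn) had a median promoter H3K4me3 of 6.21 times the genome mean in myotubes and a median myotube to myoblast ratio of 0.488. The part of such cells in the results was not tested. With 1 library per mark and cell type and no input library, no test between myoblasts and myotubes was possible. Ratios therefore compare libraries, not conditions, and the 95% intervals account for the error of counting reads and for nothing else.

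The kept distal regions had a median width of 836 bp, with quartiles of 568 and 1336 bp. They held a median of 13 H3K27ac reads in myoblasts (quartiles 7 and 28) and of 32 reads in myotubes (quartiles 16 and 68). Both libraries thus covered a typical region with few reads, and more thinly in myoblasts. Since the myotube library was the deeper, equal H3K27ac counts stand for a ratio below 1. An Id3 region with 23 reads in each library, for example, had a ratio of 0.393. The median H3K27ac ratio, myotube over myoblast and scaled by library totals, was 0.885, with quartiles of 0.59 and 1.38. Among the 11041 regions, 6379 (57.8%) had a ratio below 1 and 4662 (42.2%) a ratio above 1. By the same library totals, promoter-proximal intervals of the list had a median H3K27ac ratio of 0.517. The ratio over 10 kb windows outside peaks was 1.16. The median of 0.885 lay between these, so its direction depended on the scaling. By library totals, the exact 95% interval of the ratio included 1 in 7811 regions (70.7%), lay below 1 in 1779 and lay above 1 in 1449. It lay wholly within the limits of the rule in 4333 regions (39.2%), and 1499 regions (13.6%) had fewer than 5 myoblast reads, 15 of them none. A region was therefore placed on either side of a limit with a margin that was often smaller than its counting error.

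Just inside the lower limit stood a region in an intron of Gfod1, with 45 and 38 reads in myoblasts and myotubes and a ratio of 0.334 (95% interval 0.21 to 0.523). A region in an intron of Lama5, the laminin alpha 5 gene, had 32 and 27 reads and the same ratio of 0.334. Just outside stood regions upstream of Galntl2 and Klf12, each with 12 and 10 reads and a ratio of 0.333 (0.127 to 0.828). At the upper limit the regions upstream of Asap1 and Slc6a6 were inside, each with 7 and 60 reads. The regions in introns of Sh3pxd2a, with 35 and 274 reads, and Banp, with 24 and 190 reads, were outside, with ratios of 3.0 and 3.01. These values only show where the limits ran.

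Among the other distal intervals, 5887 (27.8%) overlapped no myotube peak and had a ratio below 1/3. They are called lost distal regions. A further 1280 had a myotube peak with a ratio below the limit, 664 a myotube peak with a ratio above it, and 2325 no myotube peak with a ratio within the limits. The share of distal intervals that were kept went with their myoblast read count, at 40.3% of intervals with 0 to 9 reads, 57.2% with 10 to 19, 67.2% with 20 to 39 and 73.5% with 40 or more. Since that count entered the rule, comparisons of kept with lost regions are also given within these bands.

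Around the kept regions the enhancer marks were high in both cell types. In the 1 kb centred on each region, the median H3K4me1 level was 15.4 times the genome mean in myoblasts (quartiles 9.87 and 22.9) and 10.6 times in myotubes (7.34 and 14.3). For H3K4me2 the medians were 11.9 (6.55 and 21.5) and 10.2 (6.45 and 16.7). H3K4me1 exceeded the genome mean at 99.4% of the regions in myoblasts and at 99.7% in myotubes. The promoter mark H3K4me3 was lower at these sites, with medians of 3.69 in myoblasts and 4.65 in myotubes, and the gene-body mark H3K36me3 had medians of 1.82 and 1.19. H3K27me3 was below the genome mean, with medians of 0.729 and 0.51 that stood for 2 and 1 reads per kb. Kept intervals at promoters had the reverse order of methylation states, with median H3K4me1 of 3.16 and 3.67 and H3K4me3 of 39.7 and 33.4 times the mean in myoblasts and myotubes.

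**Figure D1:**
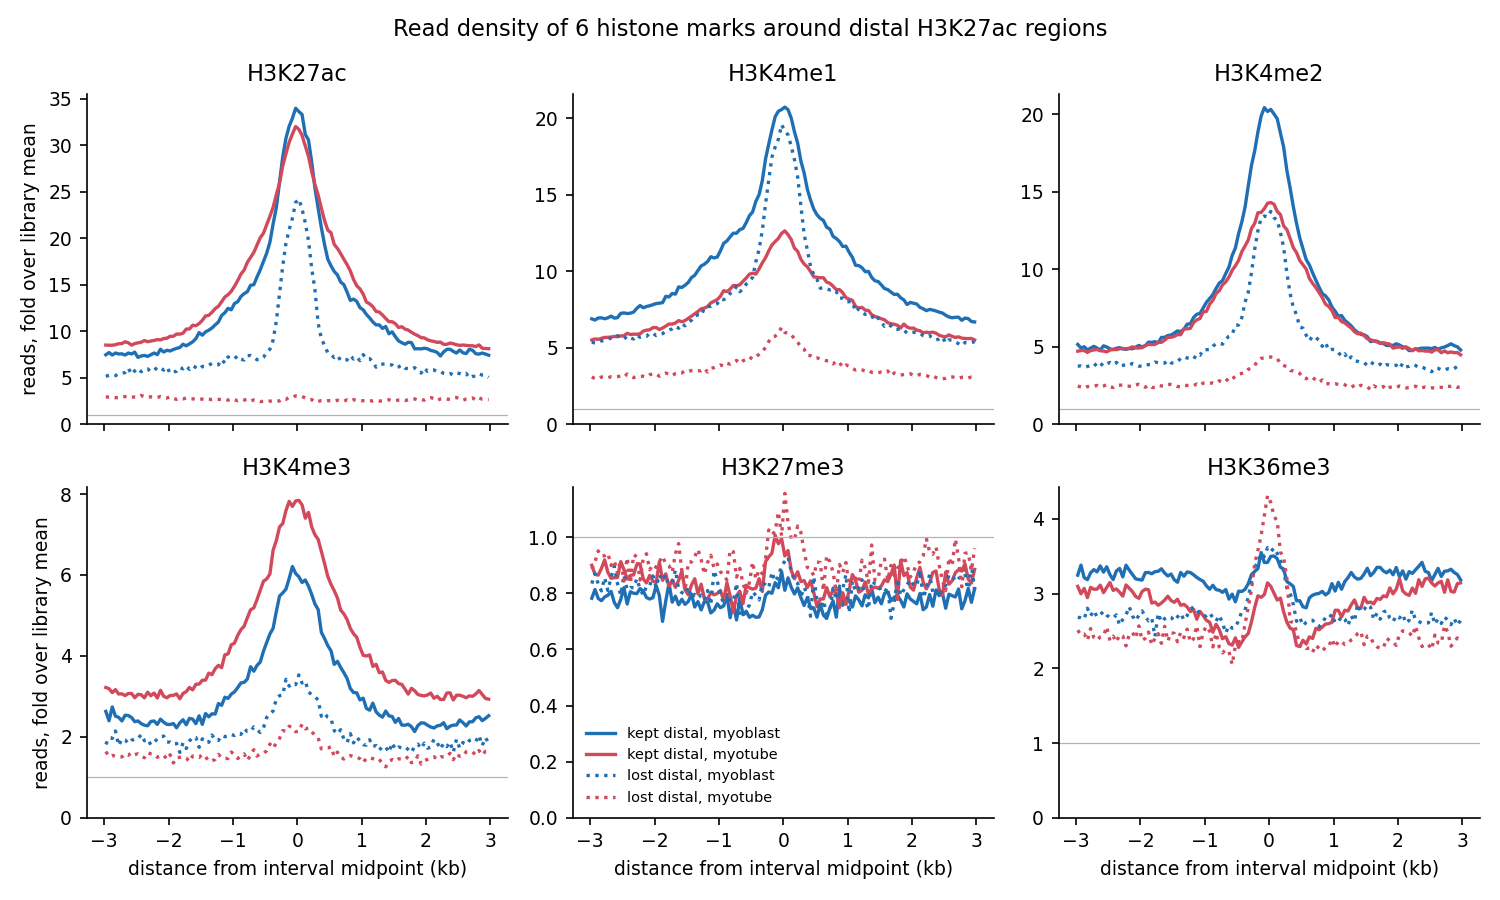
Mean read density of the 6 marks (reads per 50 bp bin as a fold of the library's genome mean, vertical axes differing between panels) against distance from the interval midpoint in kb, in myoblasts (blue) and myotubes (red), for the 11041 kept (solid) and 5887 lost (dotted) distal regions. Within 250 bp of the midpoint the kept regions averaged 19.7 and 12 for H3K4me1 and 5.83 and 7.59 for H3K4me3 in myoblasts and myotubes, while lost regions averaged 17.9 and 5.79 for H3K4me1 and 3.27 and 2.19 for H3K4me3.

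In these profiles H3K4me1 and H3K4me2 were highest at the midpoint of the kept regions and declined to both sides. Between 2.5 and 3 kb away the mean H3K4me1 level was still 6.94 in myoblasts and 5.66 in myotubes, so that the midpoint stood 2.84 and 2.11 times above its surroundings. For H3K4me3 this contrast was 2.37 in myoblasts and 2.49 in myotubes. H3K27me3 was nearly flat, at 1.05 and 1.07 times its surroundings. H3K36me3 was also close to its surroundings, at 1.04 and 0.96 times.

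The marks at the kept regions did not move by the same amount between the libraries. Over the whole interval, the median ratio of (reads + 1)/library total, myotube over myoblast, was 0.645 for H3K4me1 (quartiles 0.484 and 0.904) and 1.26 for H3K4me3 (0.841 and 1.95). Pooled over all kept regions the H3K4me1 reads numbered 629307 and 360656, a ratio of 0.592, and the H3K4me3 reads 75857 and 117500, a ratio of 1.3. With medians of 3 and 5 H3K4me3 reads per region, single ratios of this mark fall on few values, of which 1.26 is 1. H3K4me1 stayed below 1 and H3K4me3 above 1 under each scaling tried, namely by library totals, by promoter-proximal intervals (0.707 and 1.5) and by 10 kb windows outside peaks (0.519 and 1.34). For H3K4me2 the median was 0.804 (quartiles 0.539 and 1.25) by library totals and 0.461 by background windows, but 1.41 by promoter-proximal intervals, so its direction depended on the scaling. H3K36me3 had a median of 0.932 by totals and 0.952 by promoter-proximal intervals but 1.1 by background windows. The median H3K27me3 ratio of 1.4 is the value that equal counts give at these depths, with medians of 2 and 1 reads per region, and its pooled ratio was 1.14.

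Lysine 4 methylation had higher ratios at kept than at lost regions. The median ratio was 0.645 at kept against 0.361 at lost regions for H3K4me1, 0.804 against 0.42 for H3K4me2 and 1.26 against 0.841 for H3K4me3. For classes drawn by library totals, these differences do not depend on how the libraries of the compared mark are scaled. Another scaling of H3K27ac would change the classes themselves, and no values are given for lost regions drawn that way. The order held in each band of myoblast H3K27ac reads. With 40 or more reads, H3K4me1 had median ratios of 0.567 at 1894 kept and 0.296 at 153 lost regions, and H3K4me3 of 1.26 and 0.535. With 0 to 9 reads the values were 0.738 and 0.384 for H3K4me1 and 1.26 and 0.841 for H3K4me3. H3K36me3 ran the other way, with 0.932 at kept and 1.09 at lost regions, and H3K27me3 had a median of 1.4 in both classes.

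**Figure D2:**
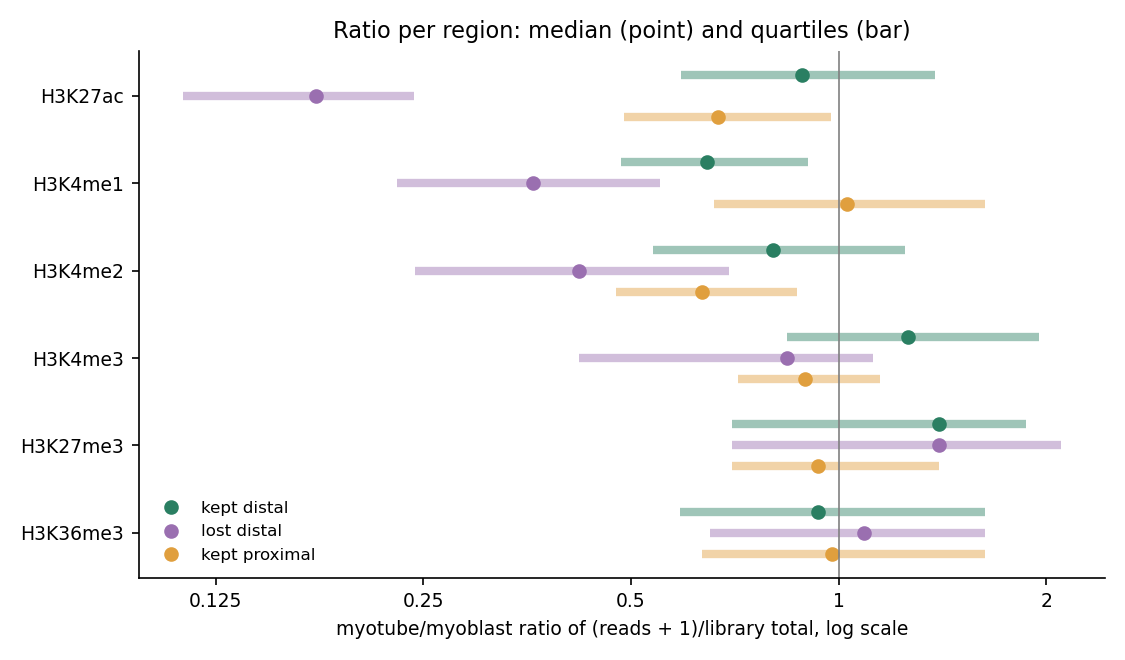
Ratio of (reads + 1)/library total, myotube over myoblast, for each mark on a log scale, with the median (point) and quartiles (bar) over 11041 kept distal, 5887 lost distal and 8527 kept proximal regions. H3K27ac chose the classes. At kept distal regions the H3K4me1 median lies at 0.645 and the H3K4me3 median at 1.26, while kept proximal regions have 1.03 and 0.895. The H3K4me2 position depends on the scaling, with 0.804 by totals and 1.41 by promoter-proximal intervals.

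Single regions were also counted by whether a mark differed past 2-fold. Of 9854 kept regions with at least 20 H3K4me1 reads in the libraries together, 2858 (29%) were past 2-fold lower in myotubes, where the share over all distal intervals was 44.6%. A further 152 (1.54%) were past 2-fold higher, against 1.17%. For H3K4me2, 1789 of 7881 (22.7%) were lower, against 36%, and 413 (5.24%) were higher, against 4.9%. For H3K4me3, 591 of 2555 (23.1%) were higher, against 21.1% of all distal intervals, and 57 (2.23%) were lower, against 5.81%. Most of the 3217 distal intervals with enough H3K4me3 reads were the kept regions themselves, so these shares could differ little. Of 150 lost regions with enough reads, 2.67% were higher and 36% lower. For H3K4me1 and H3K4me2 the kept regions differed from the background mainly in how few were lower. H3K36me3 was past 2-fold lower at 407 of 2427 regions (16.8%, against 15%) and higher at 132 (5.44%, against 8.01%). Only 118 regions had enough H3K27me3 reads, of which 30 (25.4%, against 29.4%) were higher and 0 lower (against 0%).

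Peak calls of the other marks placed most kept regions among enhancer-type chromatin in both cell types. H3K4me1 peaks overlapped 10266 regions (93%) in myoblasts, against 91.6% of all distal intervals, and 7618 (69%) in myotubes, against 51%. Both lists held a peak at 7434 regions (67.3%), against 49.7% of all distal intervals. H3K4me2 peaks overlapped 67.7% in myoblasts (58.8% of all distal intervals) and 66.9% in myotubes (46%). For H3K4me3 the shares were 14.2% in myoblasts (10.7%) and 29.5% in myotubes (19.4%). H3K36me3 peaks overlapped 14.5% in myoblasts (14.1%) and 1382 regions in myotubes, against 13% of all distal intervals. No kept region lay in an H3K27me3 peak of either cell type, where 0.0425% and 0.0472% of all distal intervals did. The myotube lists for H3K4me1 and H3K27me3 contained no interval wider than 1650 and 1962 bp, whereas every other list reached past 14 kb, so overlaps with them are not on the same footing as those in myoblasts.

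**Figure D3:**
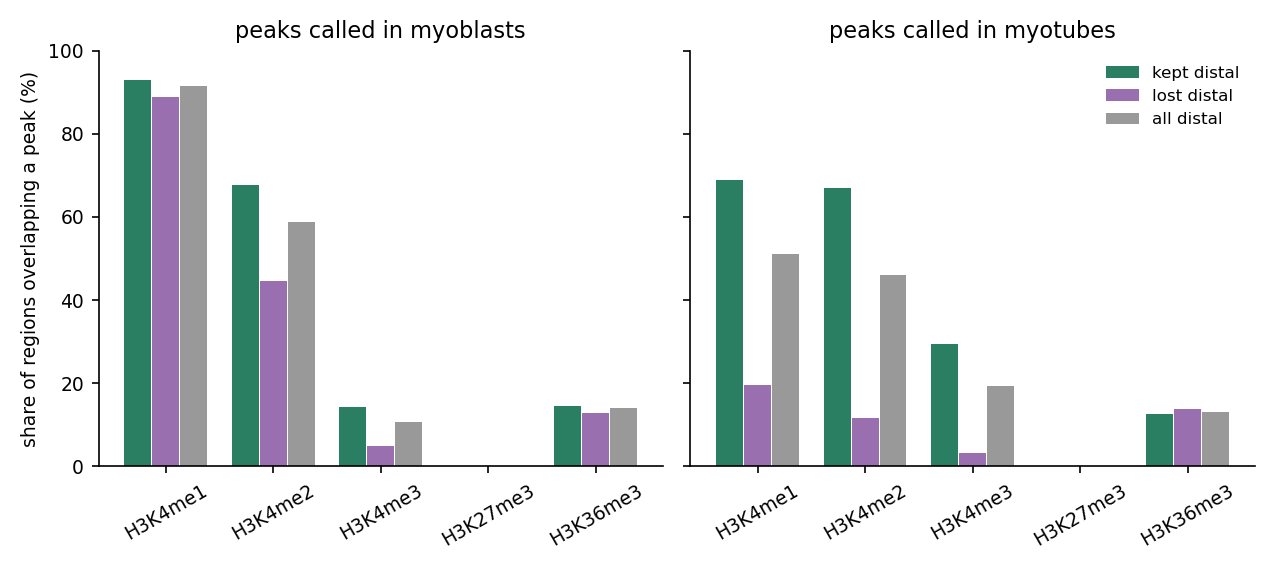
Share of regions (percent) that overlapped a peak of each mark called in myoblasts (left) or myotubes (right), for kept distal, lost distal and all distal intervals. In myotubes H3K4me1 peaks overlapped 69% of kept and 19.6% of lost regions and H3K4me3 peaks 29.5% and 3.09%, while H3K27me3 bars are at or near 0.

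An H3K4me3 peak was present in both cell types at 1306 kept regions (11.8%), in myotubes only at 1954 (17.7%), in myoblasts only at 264 (2.39%) and in neither at 7517 (68.1%). Over all distal intervals these shares were 7.91%, 11.5%, 2.76% and 77.9%, and at lost regions the myotube-only share was 1.04%. The regions with a peak in both were the widest, with a median of 1192 bp, and had the least H3K4me1 (medians 9.48 and 8.16 in myoblasts and myotubes) and the most H3K4me2 (33.4 and 24.7). Of these regions, 201 (15.4%) lay within 1 kb of an annotated TSS of any gene type, against 5.72% of all kept regions. The regions with a myotube-only peak had more H3K4me1, at 17 and 12.2, and 5.27% of them lay near an annotated TSS. Their median H3K4me3 level was 3.69 in myoblasts and 8.53 in myotubes, and their median H3K27ac ratio was 1.15 against 0.849 at regions with no H3K4me3 peak. Since the H3K4me3 calls defined these groups, their H3K4me3 levels are a description.

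Within every band of myoblast H3K27ac reads, distal intervals in a myoblast H3K4me3 peak were kept more often than those outside. The shares were 54.5% against 39.5% with 0 to 9 reads and 77.7% against 71.6% with 40 or more. Myoblast H3K4me2 peaks showed the same direction in every band, with 47% against 36% at 0 to 9 reads and 73.6% against 70.4% at 40 or more. An H3K4me1 peak in myoblasts went with a larger kept share at 0 to 9 reads (41.2% against 34.2%) and with a smaller share in the other bands, at 56.8% against 63.7%, 66.9% against 74.6% and 73.1% against 83.9%.

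The regions that moved most were taken among those with at least 30 reads of a mark in its pair of libraries. The largest H3K4me3 ratios belonged to a region in an intron of Fam167a, with 5 and 73 reads in myoblasts and myotubes (ratio 10.4, 95% interval 5.03 to 38.9), and to a region 130.0 kb upstream of Dyrk2, a protein kinase gene, with 2 and 36 reads (10.4, 3.9 to 130). At both regions H3K4me1 was lower in myotubes, with 66 and 23 reads and with 49 and 18 reads. The region upstream of Gm10009 had 2 and 34 H3K4me3 reads. At the other end, a region upstream of Lekr1 had 29 and 3 H3K4me3 reads (0.112, 0.017 to 0.281), and a region upstream of the interferon gene Ifne had 49 and 11 (0.202, 0.0885 to 0.368). The Lekr1 and Ifne regions thus ran against the median direction of H3K4me3. The H3K27ac ratios of these regions were 2.65 (1.6 to 5.32) at Fam167a, 1.64 (0.989 to 3.17) at Dyrk2 and 2.01 (1.42 to 3.07) at Gm10009. They were 0.413 (0.21 to 0.82) at Lekr1 and 0.955 (0.512 to 2.07) at Ifne.

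For H3K4me1 the smallest ratios were found in an intron of the neuron navigator gene Nav1, with 34 and 1 reads (0.059, 0.000747 to 0.181), at a region in Col4a1 with 34 and 2 reads and at a region in Cmtm8 with 85 and 8 reads. The largest were found downstream of Chac1, which encodes a glutathione-degrading enzyme, with 6 and 38 reads (5.75, 2.74 to 18.9), and downstream of the Z-disc protein gene Myoz1, with 4 and 26 reads (5.58, 2.33 to 26.5). The Myoz1 region had similar H3K4me3 in both libraries, with 91 and 110 reads (1.01, 0.763 to 1.36). The third was a region in Lsm1 with 5 and 25 reads. H3K27ac was thinly read at the regions with the smallest ratios, with 4 and 6 reads in Nav1, 6 and 7 in Col4a1 and 3 and 23 in Cmtm8. It had 10 and 32 reads at the Chac1, 66 and 103 at the Myoz1 and 5 and 15 at the Lsm1 region.

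For H3K4me2 the smallest ratio was found downstream of Ube2v1, a ubiquitin-conjugating enzyme variant, with 62 and 4 reads (0.0716, 0.0154 to 0.157). It was followed by a region upstream of Ifne, with 61 and 5 reads, and a region upstream of Plb1, with 49 and 4. The largest was found at an exon of Dhdds near the nucleosome-binding protein gene Hmgn2, with 2 and 53 reads (16.2, 6.3 to 203.0), where H3K4me3 had 1 and 24 reads. For H3K36me3 the ratio ran from 0.0777 in an intron of Glipr2, with 41 and 1 reads, to 8.81 in an intron of Ctif, with 4 and 26 reads. In H3K27me3 the highest ratio belonged to a region in an intron of Mtss1, with 8 and 24 reads (3.89, 1.82 to 10.8), and the lowest, 0.669 with 22 and 10 reads in Unc5b, had an interval that included 1 (0.269 to 1.4).

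The highest H3K27ac densities belonged to regions that differed in their other marks. A region of 749 bp upstream of Sirt4, a mitochondrial sirtuin gene, had 215 and 195 H3K27ac reads in myoblasts and myotubes. It held 10 and 9 H3K4me3 reads, which in the central 1 kb stood at 12.3 and 9.32 times the genome mean, and it overlapped an annotated U4 small nuclear RNA gene. The region upstream of Mreg, with 171 and 221 H3K27ac reads (0.508, 0.414 to 0.624), also overlapped a small nuclear RNA annotation. Small nuclear RNA genes have near-identical copies, and how reads were shared among such copies is not known here. A broad region of 4981 bp upstream of Nanos3 had 854 and 1722 H3K27ac reads (0.793, 0.73 to 0.862). It had 393 and 404 H3K4me3 reads (0.865, 0.751 to 0.996), and its printed stretch held 3 SP/KLF matches. A second region beside it, of 2470 bp, had 251 and 768 H3K27ac reads (1.2, 1.04 to 1.39). The last of these regions lay about 39 kb upstream of Myh9, with 457 and 723 H3K27ac reads (0.622, 0.553 to 0.701).

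By position, 5697 kept regions (51.6%) had their midpoint in an intron, 4938 (44.7%) in intergenic DNA and 406 (3.68%) in an exon. Of the lost regions 50.1%, 45% and 4.88% did. The median distance to the nearest protein-coding TSS was 24660 bp, and 11.1% of kept against 16.1% of lost regions lay 100 kb or more away. Kept intronic regions had median H3K36me3 of 2.91 and 2.37 in myoblasts and myotubes, against 1.09 and 1.19 for intergenic regions, while H3K4me1 ratios were alike at 0.652 and 0.645. The kept share ran from 46.4% on chromosome 18 to 58.3% on chromosome 19, and kept regions per Mb from 3.21 on chromosome 14 to 7.41 on chromosome 11.

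Many kept regions lay near another kept region. With neighbours joined across gaps of up to about 13 kb, they formed 5788 groups, and 2375 groups of at least 2 held 7628 regions (69.1%). Groups of at least 5 regions numbered 376. No such counts are given here for all or lost distal intervals, so grouping is not shown to be particular to kept regions. A group that spanned 103 kb lay at Pgs1, Socs3 and Tha1, Socs3 encoding an inhibitor of cytokine signalling, with 22 kept of 27 distal intervals and H3K4me3 of 4.69 and 4.33 times the genome mean in myoblasts and myotubes. A group of 20 at Shb and Mcart1, Shb being an adaptor protein gene, had H3K4me3 of 2.41 and 4.11. Neither of these groups contained a lost region.

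MicroRNA genes lay within 22 kept regions (0.199%), against 2 lost (0.034%) and 26 of all distal intervals (0.123%). Among them was Mir206, a microRNA of skeletal muscle, whose region had 20 and 85 H3K27ac reads in myoblasts and myotubes (ratio 1.61). It had 53 and 36 H3K4me1 reads and 9 and 23 H3K4me3 reads. The Mir22 region had 180 and 557 H3K27ac reads (ratio 1.21) and 154 and 209 H3K4me3 reads. The Mir21 region had 38 and 81 H3K27ac reads (ratio 0.827) and 72 and 89 H3K4me3 reads. These H3K4me3 counts contrast with the region of Mir23b and Mir27b, where H3K4me1 had 115 and 48 reads and H3K4me3 3 and 5. The region of Mir23a and Mir27a was like it, with 66 and 18 H3K4me1 and 3 and 2 H3K4me3 reads. However, the broad region named above as upstream of Nanos3, with 393 and 404 H3K4me3 reads, lay within 5 kb of Mir23a and Mir27a. Mir199a-2, with 82 and 80 H3K4me3 reads, and Mir199a-1, with 13 and 3, also differed. These microRNAs were named after their values were seen. Long intergenic non-coding RNA genes overlapped 326 kept regions (2.95%), close to the 2.85% of all distal intervals, and 2.53% of lost regions.

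Assigned to the nearest protein-coding TSS, the kept regions belonged to 4018 of 21410 genes (18.8%). The genes with most were 2010111I01Rik (42 kept, 0 lost), Runx1 (40 kept, 7 lost), Dusp10 (30 kept, 10 lost), Asap1 (28 kept, 4 lost) and Smad3 (24 kept, 0 lost). Runx1 is a transcription factor, Dusp10 a phosphatase of stress-activated kinases, Asap1 a regulator of Arf GTPases and actin, and Smad3 a mediator of TGF-beta signals. Promoter levels were read in the 1 kb centred on the TSS with most H3K4me3. Genes with at least 1 kept region had more promoter H3K4me3 than genes with none, with medians of 26.7 and 18.6 against 2.77 and 3.1 times the genome mean in myoblasts and myotubes. The level went with the number of kept regions, with 23.1 in myoblasts for 1 region, 25.8 for 2 to 4 and 35 for 5 or more. The median promoter H3K4me3 ratio was 0.841, the value that equal counts give, in each of these classes. Genes with lost and no kept regions had median promoter H3K4me3 of 18.4 and 10.1 in myoblasts and myotubes. A level above 2.77 and 3.1 was thus not particular to genes with kept regions. Genes with kept and no lost regions had a median promoter H3K27ac ratio of 0.717, against 0.474 for genes with lost and no kept regions, and body H3K36me3 ratios of 1.11 and 1.01.

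Of the myogenic regulators, 9 of 13 genes had a kept region and 41 of their 63 distal intervals (65.1%) were kept. Over all distal intervals the share was 52.1%, and 18.8% of all genes had a kept region. Myod1, the factor that commits cells to the muscle lineage, had 11 kept and 1 lost of 14 distal intervals, all 11 upstream in intergenic DNA. The strongest region, 22.2 kb upstream, had 127 and 272 H3K27ac reads in myoblasts and myotubes, 192 and 76 H3K4me1 reads, 79 and 56 H3K4me2 reads, 4 and 27 H3K4me3 reads, 6 and 4 H3K27me3 reads and 15 and 4 H3K36me3 reads. Its H3K27ac ratio was 0.839 (95% interval 0.68 to 1.05). The ratios of 0.412 for H3K4me1 (0.309 to 0.536) and 4.71 for H3K4me3 (1.98 to 22.3) showed that these 2 marks moved in opposite directions. The region 37.8 kb upstream had 4 and 22 H3K4me3 reads (3.87, 1.57 to 18.5), but its H3K4me1 ratio was 1.64 (0.999 to 2.83). The farthest, 60.3 kb upstream, had the lowest H3K27ac ratio of the 11, with 54 and 49 reads (0.358, 0.237 to 0.535).

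**Figure D4:**
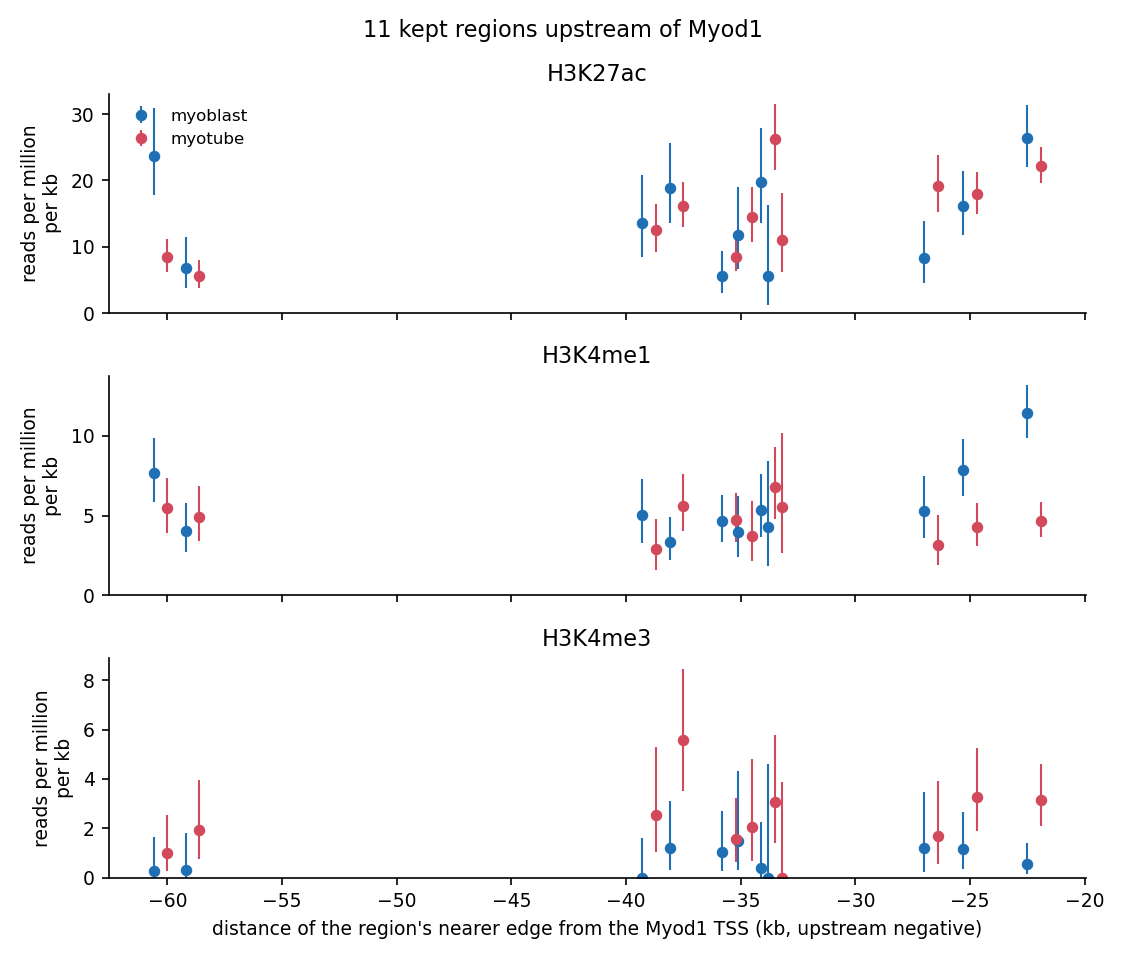
Read density, as reads per 1e6 library reads and kb, of H3K27ac, H3K4me1 and H3K4me3 in the 11 kept regions upstream of Myod1 in myoblasts (blue) and myotubes (red), with exact 95% Poisson intervals, against the distance of each region from the TSS in kb (points offset sideways for legibility). The region at 22.2 kb has lower H3K4me1 and higher H3K4me3 in myotubes, from 192 and 76 and from 4 and 27 reads.

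Of the other myogenic regulators, Mef2d had 7 kept of 7 distal intervals, Mef2a 6 of 7 and Myf6 4 of 5. Mef2a and Mef2d are MEF2 family factors, and Myf6 is a relative of Myod1. Mef2c had 2 kept of 3, with promoter H3K4me3 of 0 in myoblasts and 38.8 times the mean in myotubes. Pax7, a factor of muscle stem cells, had 6 lost and 0 kept. Over the 41 kept regions the median ratio was 0.794 for H3K4me1 and 1.68 for H3K4me3, against 0.645 and 1.26 over all kept regions.

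In the AP-1 and SRF list, 5 of 12 genes had a kept region and 19 of 32 distal intervals (59.4%) were kept. Fos, an immediate early AP-1 subunit, had 7 of 8. Its strongest region had 78 and 333 H3K27ac reads in myoblasts and myotubes (1.66, 1.31 to 2.18) with 73 and 61 H3K4me1 reads (0.865, 0.604 to 1.23). Fosl1, an AP-1 subunit, had 0 kept and 1 lost. Of the TEAD and YAP genes, 10 of 11 had a kept region, and 50 of 73 distal intervals (68.5%) were kept. Tead1, a DNA-binding partner of YAP, had 15 of 20. Its strongest region had 35 and 222 H3K27ac reads (2.44, 1.74 to 3.67) and 10 and 29 H3K4me3 reads (2.29, 1.16 to 5.61). Amotl2, a YAP target and regulator, had 9 of 10. Ctgf, a secreted YAP target, was unlike these, with 1 kept and 6 lost and promoter H3K27ac of 161 in myoblasts and 20.6 in myotubes.

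All 8 RUNX and NF1 genes had a kept region, and 69 of 117 distal intervals (59%) were kept. Runx1 accounted for 40, and its strongest region, in an intron, had 227 and 297 H3K27ac reads (0.514, 0.432 to 0.614). It had 325 and 182 H3K4me1 reads (0.58, 0.48 to 0.695). In the mesenchymal and TGF-beta list 10 of 16 genes had a kept region and 111 of 186 intervals (59.7%) were kept. Smad3 led it, followed by Tgfbr2, a TGF-beta receptor (14 of 16), Zeb1, a repressor (13 of 17), and Smad7, an inhibitor of the pathway (13 of 26). The strongest Smad3 region had 132 and 237 H3K27ac reads (0.704, 0.568 to 0.881) and 168 and 116 H3K4me1 reads (0.715, 0.558 to 0.909). Twist2, a factor that opposes myogenic factors, stood apart, with 0 kept and 11 lost of 13.

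The Id and Hes list holds factors that hold back differentiation, and 15 of its 34 distal intervals (44.1%) were kept and 15 lost. Hes1, a Notch target, had 7 of 8, and its strongest region had 88 and 215 H3K27ac reads (0.955, 0.747 to 1.25). It had 24 and 26 H3K4me3 reads (0.908, 0.503 to 1.66). Id1 had 2 kept regions, 8.47 kb upstream and 4.36 kb downstream, with 40 and 55 and with 34 and 46 H3K27ac reads. Their H3K27ac ratios were 0.537 (0.353 to 0.834) and 0.528 (0.334 to 0.855). H3K4me2 was lower at both, with ratios of 0.352 (0.174 to 0.626) and 0.426 (0.266 to 0.645), while the median H3K4me2 ratio over all promoter-proximal intervals of the myoblast H3K27ac peak list was 0.569. Id3 had 4 kept and 3 lost regions. H3K4me1 was lower in myotubes at each of its kept regions, with 80 and 20, 87 and 13, 90 and 23 and 39 and 9 reads, which gave ratios from 0.164 to 0.272. Each of these ratios had an interval below 0.645, the median of all kept regions. In the same order, the H3K27ac ratios by library totals were 0.749 (0.481 to 1.22), 0.37 (0.216 to 0.627), 0.347 (0.234 to 0.512) and 0.393 (0.211 to 0.734). H3K27ac was thus also lower at the last 3, near the lower limit of the rule.

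Among actin cytoskeleton and adhesion genes, 19 of 27 measured had a kept region and 95 of 175 distal intervals (54.3%) were kept. Myh9, the heavy chain of a non-muscle myosin, had 22 kept of 32. Its widest region, of 8113 bp in an intron, had 560 and 1526 H3K27ac reads (1.07, 0.972 to 1.18). It had 1245 and 576 H3K4me1 reads (0.478, 0.432 to 0.528) and 27 and 43 H3K27me3 reads (2.2, 1.35 to 3.75). Actn4 had 11 of 13 and the tropomyosin gene Tpm1 9 of 11. Extracellular matrix genes kept fewer, with 56 of 142 (39.4%). Col4a2 had 11 kept of 21 and Col1a1 6 of 6, while Thbs2 had 0 kept and 8 lost. The strongest Col4a2 region had 80 and 233 H3K27ac reads (1.14, 0.885 to 1.5) and 233 and 117 H3K4me1 reads (0.521, 0.412 to 0.65). The Col4a2 promoter meanwhile had H3K4me3 of 57.2 in myoblasts and 3.88 in myotubes. Col4a1, with nearly the same promoter values of 58.1 and 3.88, had 0 kept and 6 lost of 8 distal intervals. Regions were assigned to these genes only by the nearest TSS.

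Sarcomere genes build the contractile apparatus. Of these, 10 of 29 (34.5%, against 18.8% of all genes) had a kept region, and 21 of 35 distal intervals (60%, against 52.1%) were kept. Several genes whose promoters had little H3K4me3 in myoblasts nevertheless had such a region. The nebulin gene Neb had 7 and 44 H3K27ac reads at an intronic region, with 3 and 22 H3K4me1 reads, while its promoter H3K4me3 was 0 in myoblasts and 84.6 in myotubes. Tnni1, a troponin of slow fibres, had a region with 112 and 327 H3K27ac reads and promoter H3K4me3 of 2.77 and 129. Myoz2 had 14 and 32 H3K27ac reads, with promoter H3K4me3 of 0.922 and 48.1. The titin gene Ttn had 12 and 84 H3K27ac reads and promoter H3K4me3 of 9.22 and 88.4. Its myoblast level was above the median of all genes, 6.46. Desmin, Des, had 3 kept of 3, the strongest with 213 and 591 reads, and promoter H3K4me3 of 37.8 and 29.5. The strongest region of Tmod1, which caps actin filaments, had 17 and 117 H3K27ac and 48 and 59 H3K4me1 reads (1.26, 0.852 to 1.9). The H3K27ac ratios of these regions were 2.21 (Neb), 1.14 (Tnni1), 0.865 (Myoz2), 2.57 (Ttn), 1.09 (Des) and 2.58 (Tmod1). Over the 21 regions the median H3K4me1 ratio was 0.906.

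In the Igf axis 16 of 33 distal intervals (48.5%) were kept. Igf2r, which clears Igf2, had 7 of 12, and its strongest region lay in an intron that overlaps the non-coding RNA gene Airn. That region had 33 and 183 H3K27ac reads (2.13, 1.5 to 3.26) and 112 and 68 H3K4me1 reads (0.631, 0.457 to 0.855). Igf2 had no distal interval. In the cell cycle list 24 of 63 (38.1%) were kept. Myc, a growth-promoting factor, had 9 kept and 10 lost. Its strongest region, in Pvt1, had 73 and 165 H3K27ac reads (0.882, 0.671 to 1.19) with 127 and 55 H3K4me1 reads (0.452, 0.32 to 0.618). Cdkn1a, an inhibitor of cyclin-dependent kinases, had 3 kept of 3, while Mki67, a gene of cycling cells, had 0 kept and 4 lost. The cyclin gene Ccnd1 had 5 kept and 5 lost, with promoter H3K27ac of 66.1 in myoblasts and 3.79 in myotubes.

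The sequence at the centre of the kept regions was richer in several motifs than its surroundings. AP-1 matches were present in the central 500 bp of 28.7% of kept regions (exact binomial 95% interval 27.9 to 29.6), in 15.1% of windows of the same length 2 kb to either side and in 9.25% of windows at 21410 protein-coding promoters. E-box matches were present in 38.5% (37.6 to 39.4), against 24.9% in the flanking windows and 26.4% at promoters. SP/KLF matches were present in 14%, against 7.88% and 53.3%, and TEAD matches in 29.9%, against 25.1% and 20%. MEF2 matches were present in 4.74%, fewer than the 7.8% of flanking windows. RUNX matches differed little from the flanks (13.2% and 12.6%), and NF1, ETS, CArG box and CTCF matches were present in 27.4%, 3.61%, 2.55% and 0.571% of kept regions. Over all distal intervals, kept ones included, the shares were 27.9% for AP-1, 29.5% for TEAD, 13.1% for RUNX and 26.9% for NF1. These were close to the shares of kept regions. The E-box had 35.8%, SP/KLF 12.9%, MEF2 3.94%, ETS 3.34%, the CArG box 2.4% and CTCF 0.547%. A match to these letters is not evidence of binding.

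**Figure D5:**
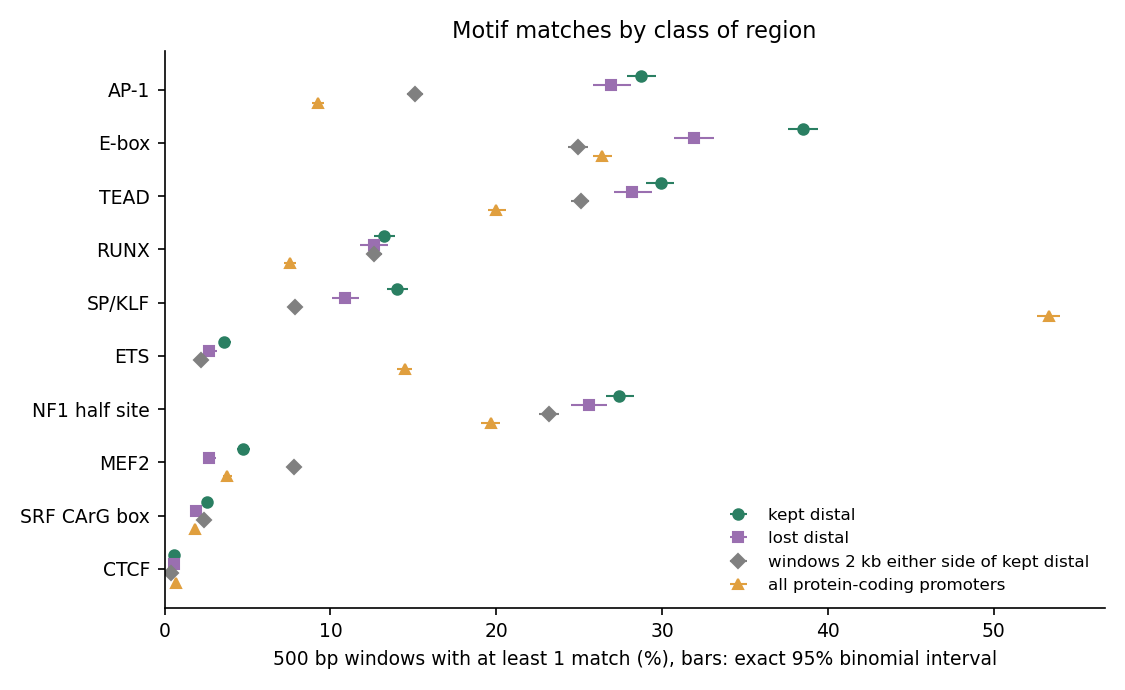
Share of 500 bp windows (percent) with at least 1 match to each motif at kept distal regions (circles), lost distal regions (squares), windows 2 kb to either side of kept regions (diamonds) and protein-coding promoters (triangles), with exact 95% binomial intervals. AP-1 reaches 28.7% at kept and 26.9% at lost regions against 15.1% in the flanking windows, and the E-box 38.5% and 31.9% against 24.9%.

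In 500 bp, every motif searched except CTCF (0.571% and 0.595%) was more frequent at kept than at lost regions. The shares were 3.61% and 2.7% for ETS, 2.55% and 1.89% for the CArG box and 29.9% and 28.2% for TEAD. They were 27.4% and 25.6% for NF1 and 13.2% and 12.6% for RUNX. A higher share at kept regions was thus not particular to the E-box and MEF2. The E-box was present in 38.5% of kept and 31.9% of lost regions (30.7 to 33.1), and MEF2 in 4.74% (4.35 to 5.15) and 2.68% (2.29 to 3.13). Distal intervals with an E-box were kept more often than those without in each band of myoblast reads, at 42.7% against 39.2% with 0 to 9 reads and 75.5% against 72% with 40 or more. For MEF2 these shares were 50.2% against 39.9% and 76.6% against 73.3%. With central windows of 200 bp and 1 kb the kept share was also the higher for both motifs, at 58.5% and 49.7% for the E-box and 12.1% and 9.68% for MEF2 in 1 kb. SP/KLF matches were present in 14% of kept and 10.9% of lost regions. Distal intervals with an SP/KLF match were kept at 56.4% against 51.4% without, but the shares were closer within the bands. They were 41.9% against 40.2%, 59.1% against 56.9%, 68.7% against 66.9% and, with 40 or more reads, 73.4% against 73.5%. AP-1 was present in 28.7% of kept and 26.9% of lost regions. In the 1 kb window the AP-1 shares were 49.2% and 50%, so its order turned with the window. Within the band of 10 to 19 reads, intervals with an AP-1 match were kept less often than those without, at 55.7% against 57.8%. Kept regions with a MEF2 match had a median H3K4me1 ratio of 0.744, against 0.644 for those without.

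The motifs also differed among the H3K4me3 groups of kept regions. SP/KLF matches were present in 31.8% of the 1306 regions where both cell types had an H3K4me3 peak, against 12.4% of those with a myotube-only peak and 11.3% of those with none. ETS matches followed the same order, at 8.27%, 3.43% and 2.85%. E-box matches were present in 42% of regions with a myotube-only peak, 38.7% with none and 32.6% with a peak in both.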

How the data were processed

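The authors aligned reads to mm9 with Mosaik and called peaks with MACS, and MACS settings are not given in the sources used here. The deposited files hold aligned read positions, used as counts of reads per interval, and peak lists with a MACS score per peak. Reads were extended to 150 bp and assigned by midpoint, and TSSs and sequence came from the mm9 genome with its GENCODE annotation. Ratios are (reads + 1)/library total, called past 2-fold with at least 20 reads. Levels are 1 kb counts over the library mean. Intervals are exact (Poisson, conditional binomial or Clopper-Pearson, 95%). Scripts used Python 3.11.15, numpy 2.4.6, pandas 2.3.3 and scipy 1.17.1 and were tested on simulated data. Libraries held 1858771 to 7033100 reads.

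Members, gene lists and motifs were chosen with earlier results of these data known. Regions were named by rule: the strongest region of each list's leading gene, the 3 highest and lowest ratios per mark (at least 30 reads), the 5 highest H3K27ac densities, regions at the limits, the 5 leading genes, the 3 largest clusters, and all regions of Myod1, Igf2, Twist2, Id1 and Id3. List examples outside it were picked after their values were seen. Alternatives changed the list, TSS distance, limits, scaling, added reads, extension, duplicates, score, overlap, window and starting list. Regions on chromosome X were left out of the rule. Some items named by these rules are not reported here.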

Additional observations from a re-analysis of the deposited data

How the results depend on the processing

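No paired analysis was possible because each mark and cell type had 1 library. The exchanged list gave 19 regions, with median ratios of 3.53 (H3K4me1), 3.38 (H3K4me2), 1.68 (H3K4me3), 0.42 (H3K27me3) and 2.04 (H3K36me3) and 36.8% in H3K4me1 peaks of both cell types, so the H3K4me1, H3K4me2, H3K27me3 and H3K36me3 directions turned. The number of regions fell to 6681 with a score of at least 100, where the H3K4me1, H3K4me2 and H3K36me3 medians were 0.624, 0.76 and 0.878 and the H3K4me1 peak share 76.1%. In the order H3K4me1, H3K4me2, other settings gave medians of 0.656 and 0.821 (limits of 1/2 and 2), 0.592 and 0.687 (H3K27ac scaled by promoters, with 1.12 for H3K4me3 and a share of 65%), 0.659 and 0.833 (H3K27ac scaled by background windows), 0.633 and 0.786 (reads not extended), 0.664 and 0.827 (250 bp extension) and 0.657 and 0.823 (myotube peak over at least 50% of the interval, share 68.9%). With 5 reads added they were 0.695 and 0.833, with 1.05 for H3K4me3 and 1.22 for H3K36me3, which turned. Starting from the myotube list gave 0.679 and 0.824, with 0.9 for H3K36me3 and a share of 66%, and the central 1 kb gave 0.671 and 0.83, with 0.858 for H3K36me3. Counting 1 read per position and strand gave 1.27 for H3K4me3. With marks scaled by promoters the 4 medians were 0.707, 1.41, 1.5 and 0.952, and by background windows 0.519, 0.461, 1.34 and 1.1, in the order H3K4me1, H3K4me2, H3K4me3, H3K36me3.

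Chosen after seeing the data, a minimum of 20 H3K27ac reads in each library left 3862 regions with 0.591 (H3K4me1), 0.684 (H3K4me2), 0.848 (H3K36me3) and a share of 81.6%. Leaving out regions in an H3K4me3 peak gave 0.62, 0.788, 1.16 (H3K4me3) and 0.978 (H3K36me3). Apart from the exchanged list, H3K4me1 was below 1 and H3K4me3 above 1 in every alternative run. The causes of these shifts were not tested. Depth limited single regions: 13 myoblast reads at the median region leave ratios uncertain, and H3K27me3, with 2 and 1 reads, was not resolved per region. In the 1 kb motif window AP-1 matches were fewer at kept (49.2%) than at lost regions (50%). The E-box, MEF2 and SP/KLF kept their order in windows of 200 bp and 1 kb. In the band of 40 or more myoblast reads, however, intervals with an SP/KLF match were not kept more often (73.4% against 73.5%).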

Other observations

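The X chromosome, left out of the rule, held 200 distal intervals of the myoblast list, of which 101 (50.5%) met the other conditions and 60 were lost. Its 101 regions had median ratios, myotube over myoblast, of 0.738 for H3K4me1 and 1.26 for H3K4me3, against 0.645 and 1.26 on chromosomes 1 to 19. Starting the same rule from the myotube list gave 10357 regions, of which 9737 (94.0%) overlapped a kept distal region, and 10247 (92.8%) of the kept distal regions overlapped one of them.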
